A study of Mus musculus with 15 samples.

Results

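The synaptic vesicle release machinery was followed through 46 genes, chosen by symbol from a fixed list of synaptotagmins, SNARE proteins and their regulators, vesicle membrane proteins, Rab3 proteins, active zone scaffolds and priming factors. Each of the 46 was found among the 35976 genes of the count table, and all 46 passed the filter on low counts in every fit. RNA had been sequenced from sorted nuclei of the mouse ventral tegmental area, the midbrain region whose dopamine neurons project to the striatum and cortex. Every sample pooled tissue from 2 male mice, heterozygous for DAT-Cre and 8 to 12 weeks old, in which Cre recombinase is made under the dopamine transporter gene. All groups, the non-dopaminergic one included, carried both Cre and an adeno-associated virus whose Cre-dependent cargo, the nuclear membrane protein KASH with an HA tag, was made in the Cre-positive cells, with 14 days allowed for viral expression. HA-positive nuclei formed the dopaminergic samples, and nuclei negative for HA but stained by DAPI formed the non-dopaminergic ones.

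Dopaminergic nuclei were taken after 7 days of food training without cocaine (n = 4), at the end of maintenance (n = 3) and after abstinence (n = 4). Non-dopaminergic nuclei were taken after food training (n = 4). Mice of the maintenance group had trained for food and then worked for cocaine in 1-hour sessions, for 5 days at a dose per infusion of 0.3 mg/kg and for 10 days at 1.0 mg/kg. Mice of the abstinence group had the same cocaine schedule and then 21 days in the home cage. The comparisons below ask which release genes mark dopaminergic nuclei against their neighbours, and which differ between the stages of cocaine taking.

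Neurotransmitter leaves a terminal when a vesicle fuses with the plasma membrane. Fusion is driven by SNARE proteins on the vesicle (synaptobrevins, Vamp genes) and on the target membrane (syntaxins and SNAP proteins), is triggered by calcium binding to synaptotagmins, and is prepared by Munc13 and CAPS priming factors at an active zone built from RIM, ELKS, Bassoon and Piccolo. Dopamine neurons release from axonal varicosities and also from their cell bodies and dendrites, and they load dopamine into vesicles whose membranes carry SV2 proteins, among them SV2C.

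The smallest library held 25813697 counts (dopaminergic nuclei after food training, replicate 3) and the deepest 59046618 (after abstinence, replicate 2), and 0 pairs of libraries were identical. The dopamine neuron markers (7 genes, Th and Slc6a3 among them) summed to 6431 to 12176 TMM-scaled CPM (counts scaled to a common library size, the unit of every level below) in food-trained dopaminergic libraries and to 324 to 513 in non-dopaminergic ones, and 7 of 7 were called higher. Oligodendrocyte markers summed to 1678 to 2649 against 8847 to 21850 and 6 of 7 were called lower, and microglial markers to 239 to 394 against 824 to 1217, with 4 of 5 called lower. Astrocyte markers summed to 380.4 to 738 against 1054 to 2539, with 2 of 5 called lower. Markers of oligodendrocyte precursors (0 to 21.6 against 107 to 169) and of vessels (0 to 27.5 against 34.2 to 57.5) were not called. GABA and glutamate neuron markers overlapped between the populations and none of the 3 and 2 was called. No marker was at 0 in all libraries of any group. The label of the HA-negative population says neurons, but glial markers were high in it. Libraries also differed in the slope of their levels on transcript GC content: the 3 maintenance libraries lay at -0.0379 to -0.0225 log2 CPM per percent GC and non-dopaminergic replicate 2 at -0.0247, against -0.0166 to 0.0324 in the other 11 libraries.

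Release genes were more often higher than lower in dopaminergic nuclei. Of 46 members, 13 were higher and 2 were lower than in non-dopaminergic nuclei after food training, at an adjusted p under 0.05 in edgeR's quasi-likelihood test over 19786 genes. The 13 were Syt1, Syt4, Syt5, Syt10, Syt17, Snap47, Sv2a, Sv2c, Rab3a, Rab3c, Erc2, Cadps2 and Napb, and the 2 were Vamp1 and Pclo. Over all genes 3.63% were called higher and 9.17% lower, and among genes over the median abundance, where 42 of the 46 members lay, 6.87% were called higher and 6.27% lower. An unadjusted p under 0.05 was found for 23 members, against 24.3% of all genes. The libraries of the groups did not overlap for 16 members on the higher side, against 6.87% of all genes, and for 6 on the lower side, against 19.1% of all genes. Of the 6, Doc2b and Syt6 passed the filter on low counts through the non-dopaminergic libraries. The median log2 fold change was 0.22 over the members and -0.21 over all genes tested. In bulk nuclei, a smaller share of nuclei of a type and less RNA per nucleus cannot be told apart, and the non-dopaminergic samples held high levels of glial markers, whose part in these differences was not tested.

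With the replicate number as a block, 9 members were called, 8 of them among the 15, and 3.92% of all genes. Without non-dopaminergic replicate 1, or without non-dopaminergic replicate 3, 8 members were called, all of them among the 15. Over all genes these fits called 1900 of 20088 and 2068 of 20215, against 2534 of 19786 in the main fit. Syt1, Syt4, Syt17, Sv2c and Pclo were past the threshold in all 17 alternative analyses.

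**Figure D1:**
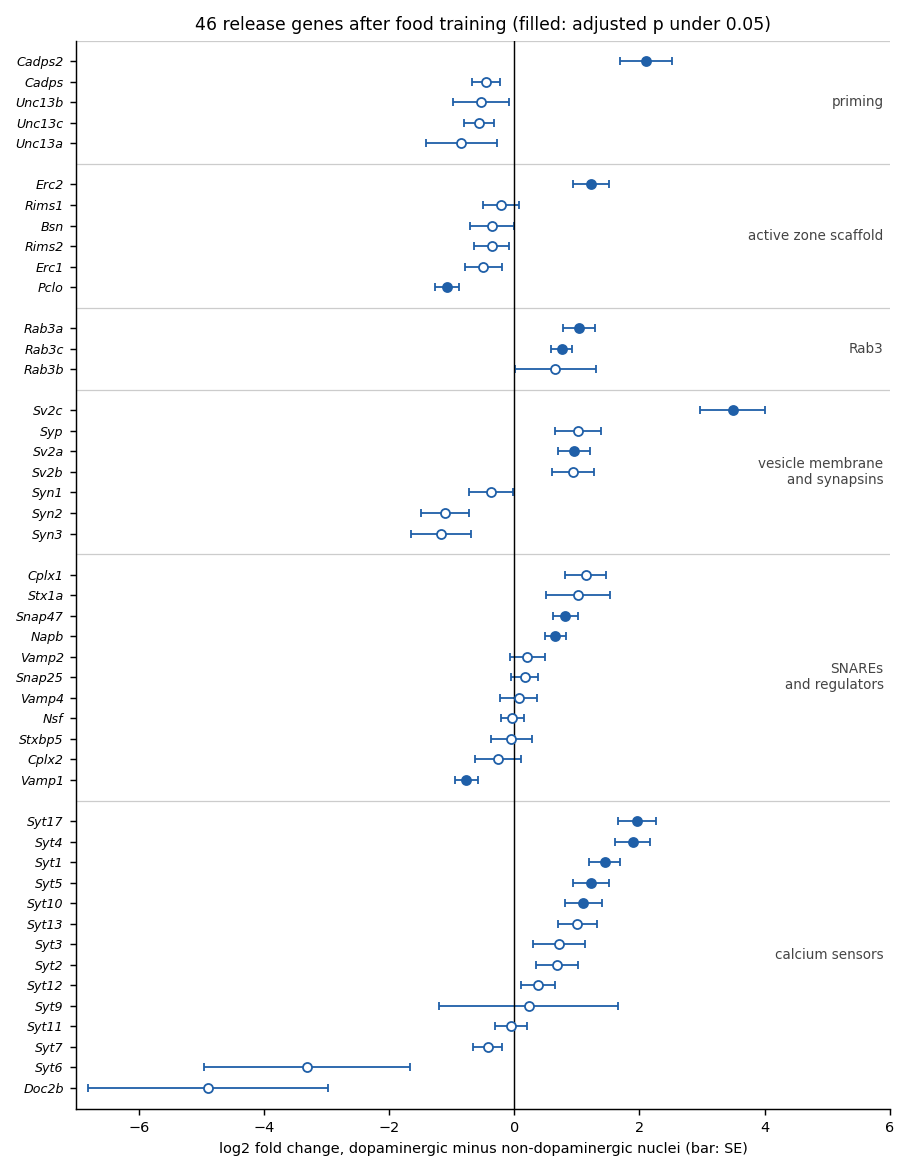
Log2 fold change of each of the 46 members between dopaminergic and non-dopaminergic nuclei after food training, grouped by role, with bars for the standard error and filled points for an adjusted p under 0.05. The 13 filled points on the higher side run from 0.65 (Napb) to 3.49 (Sv2c), and the 2 on the lower side are Vamp1 at -0.76 and Pclo at -1.08.

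Promoter sequence is shown for 3 of the genes that differed upward and for the scaffold gene that differed downward, because these 4 held their call in most or all of the alternative analyses and differ in their content of CG. The sequences are the 250 bases before the RefSeq start on the gene's own strand, build GRCm38.p6, 5′ to 3′, with each CG dinucleotide in capitals. They lie at chr13:96132578-96132827 (minus strand, 26 CG) for Sv2c, chr6:23839422-23839671 (minus strand, 44 CG) for Cadps2, chr10:109010976-109011225 (minus strand, 8 CG) for Syt1 and chr5:14514668-14514917 (plus strand, 25 CG) for Pclo.
Sv2c: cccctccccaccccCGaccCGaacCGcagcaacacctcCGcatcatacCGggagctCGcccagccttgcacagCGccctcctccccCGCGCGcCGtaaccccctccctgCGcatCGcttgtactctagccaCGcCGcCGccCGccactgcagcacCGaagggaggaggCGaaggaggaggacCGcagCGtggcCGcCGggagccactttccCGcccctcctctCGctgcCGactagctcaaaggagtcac
Cadps2: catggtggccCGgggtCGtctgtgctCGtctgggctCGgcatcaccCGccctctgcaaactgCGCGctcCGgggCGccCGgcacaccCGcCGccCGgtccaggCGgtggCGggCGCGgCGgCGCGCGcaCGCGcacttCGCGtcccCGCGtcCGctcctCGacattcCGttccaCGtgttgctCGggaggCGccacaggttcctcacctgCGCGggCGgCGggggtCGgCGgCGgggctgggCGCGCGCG
Syt1: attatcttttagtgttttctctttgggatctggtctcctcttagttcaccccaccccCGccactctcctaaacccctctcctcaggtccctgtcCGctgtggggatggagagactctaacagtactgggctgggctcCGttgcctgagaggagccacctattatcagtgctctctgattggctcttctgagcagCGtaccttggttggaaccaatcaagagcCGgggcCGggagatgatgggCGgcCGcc
Pclo: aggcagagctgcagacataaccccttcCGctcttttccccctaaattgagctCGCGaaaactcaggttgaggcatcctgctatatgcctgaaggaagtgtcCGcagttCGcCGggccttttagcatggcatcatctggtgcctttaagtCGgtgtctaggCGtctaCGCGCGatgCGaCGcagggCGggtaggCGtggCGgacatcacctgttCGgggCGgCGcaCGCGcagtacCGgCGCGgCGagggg
A RefSeq promoter was matched for 35 of the 46 members, giving 45 promoters. Their median GC content was 61.2% with 15 CG dinucleotides, against 52.4% and 6 over all 32851 promoters of that length. Of the 4 shown, those of Cadps2, Sv2c and Pclo were richer in CG than the median member, whether the gene differed upward or downward, and that of Syt1 was poorer, as was a second Syt1 promoter with 5 CG.

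Motifs linked to dopamine neuron or neuronal transcription are given as counts beside their share of all promoters. On either strand, the Nurr1 response element AAAGGTCA was in 0 of the 45 member promoters and 1.34% of all promoters, and the Pitx-type homeodomain motif TAATCC was in 3, from Sv2b and Syp, against 6.25% of all. The cyclic AMP response element TGACGTCA (1.55% of all) and the RE1 half-site TTCAGCACC (0.301% of all) were each in 1 promoter, that of Syn1 in both cases. These matches describe letters in a window and show no binding.

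In the group of calcium sensors, 5 of 14 were higher in dopaminergic nuclei, 0 were lower and 9 were not called. The group holds synaptotagmins and Doc2b, and some of them bind calcium poorly or not at all. Over all genes 3.63% were higher and 9.17% lower, and among genes over the median abundance 6.87% and 6.27%. Both pairs of shares apply to the role groups below as well. Syt1 is the fast calcium sensor of synaptic release. Its level was 2353, 2641, 3430.4 and 3877 CPM in dopaminergic replicates 1 to 4 and 952, 1105, 1078 and 1308 in non-dopaminergic replicates 1 to 4. Every dopaminergic library was above every non-dopaminergic one, at a log2 fold change of 1.45 ± 0.25 (SE, adjusted p = 0.0067). Syt4 encodes a synaptotagmin that binds calcium poorly and is found on dense-core vesicles and in dendrites. It stood at 2777, 3816, 2457 and 3464 CPM against 708, 945, 571 and 1098, with no overlap and a log2 fold change of 1.89 ± 0.28 (SE, adjusted p = 0.0067). Syt17, also called B/K protein, is an atypical family member of the secretory pathway. Its values were 62.7, 62.0, 121 and 71.1 CPM against 15.0, 16.8, 21.8 and 25.9. Replicate 3 was the high library and the groups did not overlap, with a log2 fold change of 1.97 ± 0.31 (SE, adjusted p = 0.0067).

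Syt5 and Syt10 also differed. Syt5 is a vesicle synaptotagmin that binds calcium. It measured 482, 464, 342 and 663 CPM in dopaminergic libraries and 241, 156, 144 and 279 in the others, without overlap (log2 fold change 1.23 ± 0.29 SE, adjusted p = 0.0215). Syt10 is a calcium sensor known from the secretion of a growth factor. It measured 35.1, 47.0, 57.1 and 64.6 CPM against 19.2, 21.0, 20.6 and 32.6, where the highest non-dopaminergic library came close to the lowest dopaminergic one (log2 fold change 1.10 ± 0.29 SE, adjusted p = 0.0362). The call of Syt10 was lost with the replicate block (adjusted p = 0.0867) and without dopaminergic replicate 4 or non-dopaminergic replicate 1, 2 or 3 (adjusted p 0.0731 to 0.106), and that of Syt5 without non-dopaminergic replicate 2 or 3 (0.0576 and 0.0561). Syt10 was also lost in the all-15-library fit (0.0798) and without the filter on low counts (0.0574). With both replicates 2 left out, an alternative chosen after seeing the data, the calls of Syt5, Syt10, Snap47, Sv2a and Rab3a were lost (adjusted p 0.0652 to 0.16).

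The other members of this group were not called. Syt13, a synaptotagmin without calcium binding, lay at 365 to 757 CPM in dopaminergic and 166 to 354 CPM in non-dopaminergic nuclei without overlap, at a log2 fold change of 1.01 ± 0.31 (SE, adjusted p = 0.0675), and it was called with the replicate block. Syt3 measured 347, 247, 150.2 and 374 CPM against 223, 66.2, 153 and 226, which overlap (log2 fold change 0.72, adjusted p = 0.347). Over the alternative analyses its log2 fold change ran from 0.45 (without non-dopaminergic replicate 2) to 0.95, without a call. Syt11, which has lost calcium binding, was nearly level between the populations at 1614 to 2308 and 1303 to 2499 CPM. Doc2b, a high-affinity sensor of spontaneous and asynchronous release, was at 0 in 3 dopaminergic libraries and at 0.761 CPM in replicate 4, against 4.1 to 6.69 CPM in non-dopaminergic nuclei. Its adjusted p was 0.149, with 0 to 35 counts behind the dopaminergic values. Syt6 was at 0 to 4.34 CPM against 15.5 to 17.7 (adjusted p = 0.264). Doc2b and Syt6 were the lowest of the 46 in dopaminergic nuclei. In this comparison both passed the filter on low counts through the non-dopaminergic libraries. The lack of overlap between their groups is therefore no support for a difference.

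In the SNARE group, which includes complexins, tomosyn and the disassembly factors, 2 of 11 were higher, 1 was lower and 8 were not called, where 3.63% of all genes were higher and 9.17% lower. Snap25, Vamp2 and Stx1a form the core SNARE complex of fast release. Snap25 measured 473, 405, 524 and 522 CPM in dopaminergic and 398, 579, 341 and 375 CPM in non-dopaminergic libraries, which overlap (log2 fold change 0.16 ± 0.21 SE, adjusted p = 0.721). Vamp2 overlapped as well, with 226, 182, 156 and 269.8 CPM against 170.3, 106, 189 and 244 (log2 fold change 0.21 ± 0.28 SE, adjusted p = 0.737). Over the 17 alternative analyses the log2 fold change ran from 0.05 to 0.42 for Snap25 and from 0.02 to 0.40 for Vamp2, without a call. Stx1a stood at 89.5, 33.9, 33.8 and 37.6 CPM against 25.7, 7.15, 31.8 and 29.7. All 4 dopaminergic libraries were above the highest non-dopaminergic one, and the difference was not called (log2 fold change 1.02 ± 0.51 SE, adjusted p = 0.273). Without dopaminergic replicate 1, the highest library, the log2 fold change was 0.55 (adjusted p = 0.539).

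Snap47 encodes a SNAP family protein found mostly on intracellular membranes. Its levels of 129, 134, 109.8 and 181 CPM were all above the 87.1, 85.9, 64.6 and 72.7 CPM of non-dopaminergic nuclei (log2 fold change 0.81 ± 0.20 SE, adjusted p = 0.0297). Napb encodes beta-SNAP, the adaptor with which NSF takes SNARE complexes apart after fusion. It measured 173, 203, 207 and 184 CPM against 108, 147, 106 and 118, with no overlap (log2 fold change 0.65 ± 0.17 SE, adjusted p = 0.0326). Nsf itself, at 153 to 229 CPM against 182 to 237, was not called (log2 fold change -0.03, adjusted p = 0.941). Vamp1, the synaptobrevin paralog typical of fast-firing and motor circuits, went the other way, at 75.5, 54.9, 81.3 and 69.5 CPM against 129.8, 108, 118 and 115. Every dopaminergic library was below the others, with a log2 fold change of -0.76 ± 0.18 (SE, adjusted p = 0.021). The replicate block ended all 3 calls (adjusted p = 0.0839 for Snap47, 0.0823 for Napb and 0.0635 for Vamp1). Leaving out non-dopaminergic replicate 1, 3 or 4 ended each of them as well (adjusted p 0.0557 to 0.0901 for Snap47, 0.0893 to 0.109 for Napb, 0.0505 to 0.0905 for Vamp1), as did leaving out dopaminergic replicate 2 for Napb (0.064). So did dropping the filter on low counts for Snap47 and Napb (adjusted p = 0.055 and 0.0513) and the fit of all 15 libraries for Snap47 and Vamp1 (0.0603 and 0.0516).

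Cplx1, the complexin that clamps and then promotes SNARE fusion, was higher in every dopaminergic library at 115 to 303 CPM against 81.6 to 103 and lay just outside the threshold (log2 fold change 1.14 ± 0.33 SE, adjusted p = 0.0528). Its paralog Cplx2 overlapped at 63.8 to 105 against 39.9 to 149 CPM (log2 fold change -0.26, adjusted p = 0.743). Vamp4 and Stxbp5 (tomosyn, which competes for SNARE assembly) had log2 fold changes of 0.07 and -0.05 and overlapping libraries.

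Among the vesicle membrane proteins and synapsins, 2 of 7 were higher and 0 were lower (all genes 3.63% and 9.17%), and both were SV2 genes. The SV2 proteins are vesicle glycoproteins that regulate the readiness of vesicles to fuse, and SV2C is known for its place in basal ganglia and dopamine neurons. Sv2c measured 90.7, 392, 251 and 482 CPM in dopaminergic libraries and 18.6, 18.8, 35.1 and 33.8 CPM in non-dopaminergic ones. Replicate 1 was the lowest of the dopaminergic libraries and still above every non-dopaminergic one. Its log2 fold change of 3.49 ± 0.52 (SE, adjusted p = 0.0067) was the highest of the 46 members. Sv2a, the widely expressed paralog and the binding site of the antiseizure drug levetiracetam, stood at 1458, 1645, 1042 and 1811 CPM against 885, 578, 646 and 926. The groups did not overlap (log2 fold change 0.95 ± 0.26 SE, adjusted p = 0.0412), but the call was lost with the replicate block (adjusted p = 0.051) and without any 1 library other than dopaminergic replicate 3 (0.0611 to 0.106).

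Sv2b and Syp (synaptophysin, an abundant vesicle protein) had log2 fold changes of 0.94 and 1.02 with overlapping libraries and were not called (adjusted p = 0.12 and 0.125). The synapsins, which tether vesicles in the reserve pool, all had negative log2 fold changes without a call. Syn1 was at -0.37, Syn2 at -1.11 and Syn3 at -1.17, with adjusted p of 0.599, 0.1 and 0.168. For Syn2 and Syn3 no dopaminergic library reached the lowest non-dopaminergic one (9.61 to 33.9 against 45.3 to 63.5 CPM, and 14.2 to 79.6 against 85.1 to 131 CPM). Both genes overlap a gene on the opposite strand, Timp4 and Timp3.

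Rab3 proteins are small GTPases that dock vesicles at release sites through RIM, and 2 of the 3 were higher, where 3.63% of all genes were. Rab3a, the main brain form, measured 314, 201, 145 and 272 CPM against 123, 120.2, 93.2 and 111, without overlap (log2 fold change 1.04 ± 0.25 SE, adjusted p = 0.0257). Rab3c measured 264, 193, 193 and 239 CPM against 125, 120.3, 133 and 138, also without overlap (log2 fold change 0.76 ± 0.17 SE, adjusted p = 0.0171). Rab3b was low in both populations, at 11.9, 13.3, 2.13 and 10.3 CPM against 6.02, 6.42, 5.42 and 5.66, and was not called (adjusted p = 0.627). Rab3c lost its call with the replicate block (adjusted p = 0.0625), with the GC offset (0.0917) and without non-dopaminergic replicate 1 (0.0555). Rab3a kept it with the block (0.0481) and lost it without dopaminergic replicate 1 or 4 or any 1 non-dopaminergic library (0.0504 to 0.0739).

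Of 6 active zone scaffold genes, 1 was higher, 1 was lower and 4 were not called, where 3.63% of all genes were higher and 9.17% lower. Of the 6 log2 fold changes, 5 were negative, where the median over all genes was itself -0.21, and only Pclo of the 5 was called. Erc2 encodes CAST, an ELKS family scaffold of the presynaptic membrane. It stood at 308, 291, 617 and 380.3 CPM in dopaminergic and 185, 116, 196 and 172 CPM in non-dopaminergic nuclei, with no overlap (log2 fold change 1.23 ± 0.29 SE, adjusted p = 0.0217). Its call was lost without non-dopaminergic replicate 2 or 4 (adjusted p = 0.0515 and 0.0599). Pclo encodes Piccolo, a giant scaffold that organises actin and vesicle supply. At 71.5, 95.6, 91.3 and 82.7 CPM against 158, 183, 221 and 145, every dopaminergic library was lower (log2 fold change -1.08 ± 0.19 SE, adjusted p = 0.0067). Its partner Bsn (Bassoon) overlapped at 15.5 to 48.2 against 28.7 to 48.1 CPM, and Rims1, Rims2 and Erc1 also overlapped, with log2 fold changes of -0.21, -0.36 and -0.49.

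Of the 5 priming genes, 1 was higher and 0 were lower (all genes 3.63% and 9.17%). Cadps2 encodes CAPS2, a priming factor of dense-core and monoamine vesicles. It measured 24.0, 32.4, 53.9 and 69.6 CPM against 9.71, 13.4, 11.2 and 6.9, and the groups did not overlap (log2 fold change 2.11 ± 0.41 SE, adjusted p = 0.00835). With the replicate block its adjusted p was 0.0785, and the call was kept without any 1 library. Its paralog Cadps overlapped between the populations (64.8 to 119.7 against 107 to 143 CPM, log2 fold change -0.45, adjusted p = 0.262). The Munc13 genes Unc13a, Unc13b and Unc13c, which open syntaxin for SNARE assembly, had log2 fold changes of -0.85, -0.54 and -0.56 with overlapping libraries and adjusted p of 0.427, 0.544 and 0.191.

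Of the 46 members, 18 have exons that overlap another gene in GENCODE M21, most of them on the opposite strand. Among those called these are Syt4 (with Gm26658), Snap47 (with Jmjd4), Rab3a (with Mpv17l2), Erc2 (with Gm45645) and Pclo (with Gm26918 and Gm26954). Whether strand was used in counting is not given in the sources used here, so reads of these pairs cannot be told apart.

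**Figure D2:**
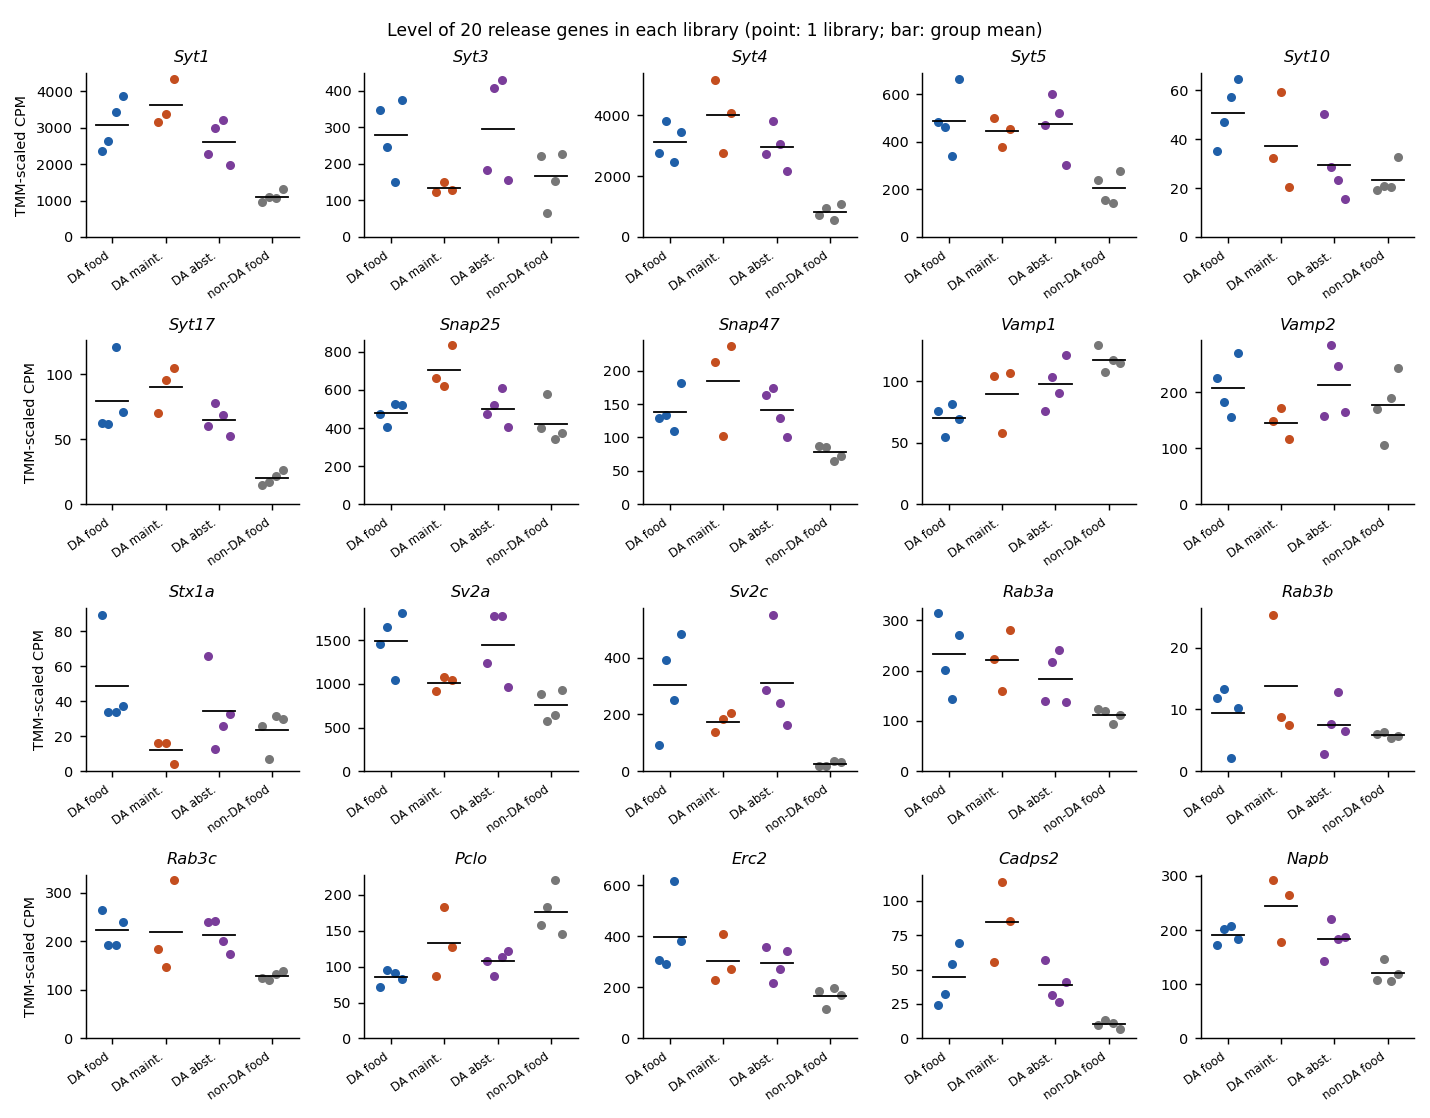
Levels of the 20 release genes described library by library, in TMM-scaled CPM on linear axes from 0, with 1 point per library, a bar at each group's mean and the 4 groups side by side. The dopaminergic stages lie together and apart from non-dopaminergic nuclei for Syt1, Syt4, Syt17 and Sv2c, while the lowest value of Stx1a is at maintenance.

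Divided by the length of the longest annotated transcript, levels can be compared between genes as far as that transcript is the one expressed. The 6 highest medians in dopaminergic nuclei after food training are given first. Median levels per kb were 802 CPM for Syt4, 630 for Syt1, 388 for Syt11, 360.1 for Syp, 358 for Sv2a and 270.3 for Syt5. The ranges of Syt4 and Syt1 overlapped, as did those of the other 4 with their neighbours in this order, while every library of Syt1 was above every library of Syt11. Syt5 (195 to 379) also overlapped the genes that came next, Rab3a (92.9 to 202) and Syt13 (97.0 to 201). In non-dopaminergic nuclei Syt11 was first (419 CPM per kb), before Syt1 (226) and Syt4 (212). Sv2c was 20th in dopaminergic and 40th in non-dopaminergic nuclei, and Cadps2 35th and 44th.

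Shares within families, as percent of the family's summed level per kb, showed which paralog took the larger part in each library. Cadps2 made up 36.9%, 29.9%, 46.03% and 57.1% of the CAPS pair in dopaminergic replicates 1 to 4 and 12.2%, 13.8%, 11.1% and 9.28% in the non-dopaminergic ones. The remainder in each library is Cadps, so dopaminergic nuclei carried the pair in more even parts. Erc2 made up 77.9% to 90.4% of the ELKS pair against 58.5% to 67.4%, again without overlap. Sv2c made up 2.54% to 10.2% of the SV2 family against 0.915% to 2.32%, with Sv2a the main member in both populations.

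Among the 13 synaptotagmins, Syt4 took 29.5% to 38.7% in dopaminergic and 15.7% to 20.3% in non-dopaminergic nuclei, and Syt11 took 15.0% to 17.1% and 28.5% to 41.6%. The share of Syt1 overlapped, at 21.6% to 33.3% and 17.0% to 24.6%. Cplx1 held 80.2% to 90.8% of the complexin pair against 60.9% to 82.1%, and Vamp1 6.61% to 13.0% of the 3 Vamp genes against 12.6% to 17.0%, each with a narrow overlap. Rims2 was the main RIM in both populations, at 83.9% to 90.6% and 89.4% to 91.3%. Rab3a was the main Rab3, at 79.8% to 85.3% and 77.5% to 82.7%. Unc13c led the Munc13 genes at 55.4% to 68.0% and 51.3% to 71.5%. These shares are descriptions without a test, and they depend on the annotated lengths.

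**Figure D3:**
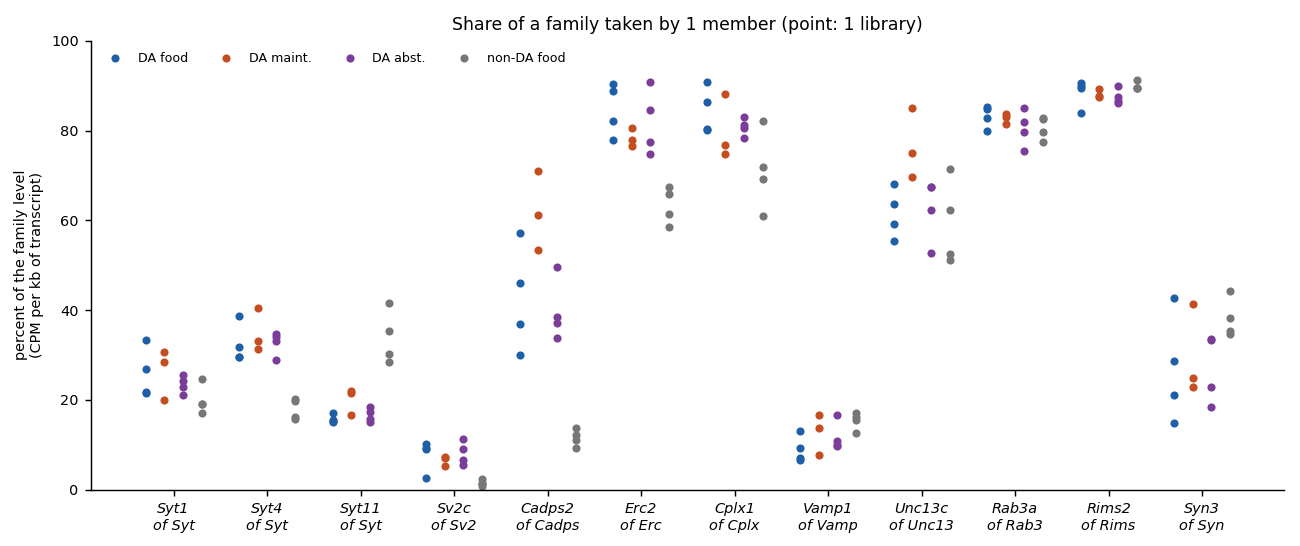
Share of a family's level, in percent of the family's CPM per kb of transcript, taken by 1 member in each library, with the 4 groups in separate colours. Cadps2 lies at 29.9% to 57.1% in food-trained dopaminergic nuclei and at 9.28% to 13.8% in non-dopaminergic nuclei, with no library in between.

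Other genes of the vesicle cycle, from lists beside the 46, are given beside the 12.8% of all genes called in either direction, and the release and recycling lists were near that share. Of 35 further release genes, 3 were higher and 2 were lower in dopaminergic nuclei. Syngr3, a synaptogyrin that binds the dopamine transporter, had a log2 fold change of 1.22 (adjusted p = 0.0301), the vesicle SNARE Vamp7 1.19 (0.0464) and the liprin Ppfia2 0.81 (0.0485). The liprin Ppfia4 stood at -1.60 (adjusted p = 0.01) and the synaptophysin-like gene Sypl at -1.31 (0.0169). Of 29 vesicle recycling genes, Ap2m1 of the clathrin adaptor was higher (0.86, adjusted p = 0.0245), and dynamin 2 (Dnm2, -1.39), amphiphysin 2 (Bin1, -1.04) and intersectin 2 (Itsn2, -0.71) were lower (adjusted p = 0.0131, 0.0248 and 0.0496). Of 15 proton pump genes, which acidify vesicles for transmitter loading, 3 were higher and 0 lower: Atp6v0b (1.41), Atp6v1h (1.39) and Atp6v0c (1.09), with adjusted p of 0.00699, 0.0245 and 0.0281. None of these genes was called in any comparison between stages.

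At the end of cocaine maintenance, 0 of the 46 members passed the threshold against food training, where 0.131% of 19060 genes did (0.00525% higher and 0.126% lower). At an unadjusted p under 0.05 there were 5 members, against 11.6% of all genes. The libraries did not overlap for 1 member on the higher side and 2 on the lower, against 4.29% and 4.21% of all genes. The members' median log2 fold change was -0.00 (all genes -0.01), and 23 lay above 0 and 23 below. The DESeq2 test called 977 of the 19060 genes and 1 of the 46 members, Stx1a. Oligodendrocyte markers summed to 1015 to 1606 CPM at maintenance, below the 1678 to 2649 after food training, and microglial markers to 120 to 312 against 239 to 394, and their part in the members' values was not tested.

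Stx1a was the member with the lowest p. It measured 89.5, 33.9, 33.8 and 37.6 CPM after food training, 16.1, 16.3 and 4.26 at maintenance and 66.1, 12.6, 26.1 and 32.8 after abstinence. All 3 maintenance libraries were below the lowest food-trained one, while the abstinence libraries overlapped both. The log2 fold change at maintenance was -1.997 ± 0.64 (SE, adjusted p = 0.302, and 0.0317 in the DESeq2 test). Stx1a has a GC-rich transcript, at 57.9%. With each library's GC trend removed by an offset its value was -1.69 (adjusted p = 0.404). In the fit of all 15 libraries with a term for the 4 libraries of low GC slope it was 0.027. Food-trained dopaminergic replicate 2, the next in slope at -0.0166, was not given the term. All 3 maintenance libraries carry that term, so it is estimated from non-dopaminergic replicate 2 against the other 3 non-dopaminergic libraries alone, and every value given with it rests on that 1 library of another population.

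Syt3, a calcium sensor of high affinity, was also lower in each maintenance library, at 124, 149 and 129.6 CPM against 347, 247, 150.2 and 374 after food training and 183, 407, 429.5 and 156 after abstinence. The nearest food-trained library lay just above the highest maintenance one, and the difference was not called (log2 fold change -1.06 ± 0.40 SE, adjusted p = 0.383). Snap25 was the member that lay higher in every maintenance library, at 665, 621 and 836 CPM against 473, 405, 524 and 522, and at 476, 521, 609 and 404 after abstinence. Its log2 fold change was 0.56 ± 0.23 (SE, adjusted p = 0.396). With the GC offset Syt3 stood at -0.69 and Snap25 at 0.15, both in the same direction as before. With the term for low GC slope Syt3 stood at 0.55 and Snap25 at -0.085, and both directions turned.

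Cadps2 measured 55.5, 114 and 85.4 CPM at maintenance, 24.0, 32.4, 53.9 and 69.6 after food training and 57.1, 31.9, 26.6 and 40.9 after abstinence. The maintenance libraries overlapped both other stages, and the log2 fold change against food training was 0.91 ± 0.40 (SE, adjusted p = 0.413). Its share of the CAPS pair was 53.4% to 71.0% at maintenance, 29.9% to 57.1% after food training and 33.8% to 49.5% after abstinence. Pclo measured 87.4, 183 and 128 CPM at maintenance against 71.5, 95.6, 91.3 and 82.7, and 108, 87.1, 113 and 122 after abstinence (log2 fold change 0.64 ± 0.27 SE against food training, adjusted p = 0.4). Maintenance replicate 2 reached the levels of non-dopaminergic nuclei (145 to 221 CPM), and without it the log2 fold change was 0.32. Maintenance replicate 1 lay within the food-trained range.

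For the remaining core and lead genes, maintenance values overlapped food training. Syt1 stood at 3171, 3378 and 4330.4 CPM (log2 fold change 0.24, adjusted p = 0.881), Vamp2 at 148, 171 and 116 CPM (-0.53, adjusted p = 0.505) and Sv2a at 912, 1082 and 1048 CPM (-0.55, adjusted p = 0.478). Rab3b, a low gene of 25.3, 8.75 and 7.49 CPM at maintenance, had a log2 fold change of 0.56 (adjusted p = 0.926), and -0.21 without maintenance replicate 1. Under the GC offset Vamp2 stood at -0.39 and Sv2a at -0.39, and with the term for low GC slope at 0.40 and -0.052.

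After 21 days of abstinence, none of the release genes was called against food training. Of 46 members, 0 passed the threshold, 0 had an unadjusted p under 0.05 and 0 had libraries without overlap in either direction. Over all genes edgeR called 0%, 4.3% had an unadjusted p under 0.05, and 2.37% and 0.955% lay without overlap on the higher and lower side. DESeq2 called 140 genes in this comparison, and 0 of them were members. The members' median log2 fold change was -0.01 (all genes 0.04). Syt1 was at 2268, 3004, 3201 and 1979.6 CPM, Syt4 at 2722, 3809, 3074 and 2176 CPM and Sv2c at 287, 549.5, 239.5 and 161 CPM, each overlapping the food-trained libraries. A difference that misses the threshold in 4 against 4 libraries is not shown to be absent.

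Between abstinence and maintenance, which share no library, 0 members and 0.178% of all genes were called (0.168% higher and 0.0105% lower). An unadjusted p under 0.05 was found for 5 members, against 9.92% of all genes, and libraries did not overlap for 2 members on the higher side (Syt3 and Unc13a) and 2 on the lower (Snap25 and Vamp4), against 7.56% and 4.57% of all genes. The log2 fold change was 1.13 ± 0.40 (SE) for Syt3, 1.498 ± 0.62 for Stx1a, -1.12 ± 0.40 for Cadps2 and -0.50 ± 0.23 for Snap25, with adjusted p of 0.415, 0.481, 0.417 and 0.5. Under the GC offset these were 0.74, 1.23, -1.09 and -0.071, and with the term for low GC slope -0.47, -0.53, -0.59 and 0.15, where Syt3, Stx1a and Snap25 turned direction. Without abstinence replicate 1, Stx1a stood at 0.97. Tested across the 3 stages at once, edgeR called 0 members and 0.0839% of all genes. The comparisons of maintenance with food training and with abstinence share the maintenance libraries, so these values are not separate evidence.

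Across the 46 members, the change at maintenance went with the GC content of the transcript. Spearman's rho was -0.36 over the members and -0.22 over 16253 genes with a GC value for maintenance against food training, 0.49 and 0.25 for abstinence against maintenance, and 0.19 and 0.03 for abstinence against food training. For dopaminergic against non-dopaminergic nuclei it was 0.04 over the members and -0.09 over 16803 genes. The points share their libraries, and genes are not independent replicates, so these are descriptions. For maintenance against food training, the fit with the GC offset called 23 genes and 0 members, and the fit with the term for low GC slope called 0 genes.

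**Figure D4:**
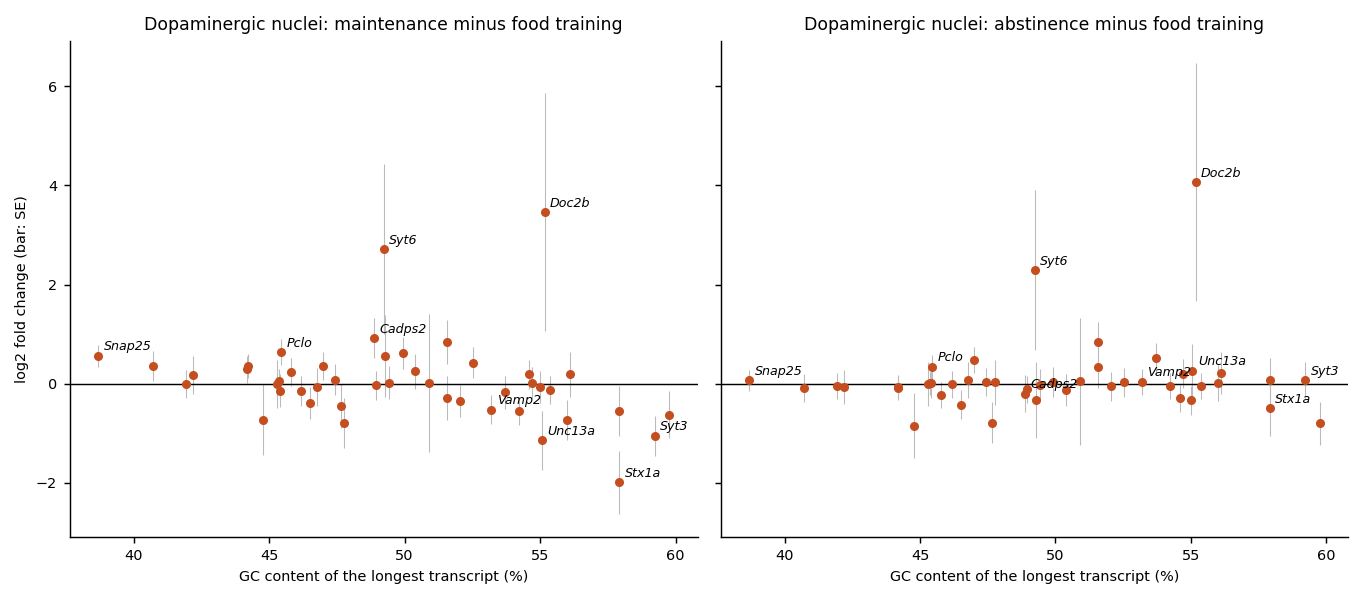
Log2 fold change of the 46 members in dopaminergic nuclei, for maintenance (left) and abstinence (right) minus food training, against the GC content of the longest transcript in percent, with bars for the standard error. At maintenance the GC-rich Stx1a (-1.997) and Syt3 (-1.06) lie low and the AT-rich Snap25 (0.56) lies high. Other members lie the other way, among them Doc2b (55.2% GC, 3.46, on few counts) and Unc13b (44.8% GC, -0.73). None of the 46 members is called.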

How the data were processed

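Nuclear RNA was sequenced in 15 libraries, and the authors deposited whole-number counts per gene, which were used as they stand. The submitters' processing notes name Trim Galore 0.6.7, cutadapt 1.18, STAR 2.7.10a, StringTie 2.1.5 and DESeq2 1.38.3, and the build mm10. The annotation, the use of strand and the counting step are not given in the sources used here. The low-input kit amplifies cDNA without molecular identifiers, so counts are not independent molecules.

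Genes were kept by filterByExpr, scaled by TMM and tested two-sided with edgeR 4.0.16 (R 4.3.3, limma 3.58.1) with Benjamini-Hochberg adjustment over all genes tested and a threshold of 0.05. The populations were compared in the 8 food-trained libraries, and the stages in a fit of the 11 dopaminergic libraries. The alternatives, DESeq2 1.42.0 among them, are given in the closing section. Transcript length and GC content came from GENCODE M21, by symbol for 26763 genes and by an older symbol for 17, which covers 84.9% of the genes tested between populations and 85.3% between stages. GC slopes used 8176 genes.

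Same-numbered dopaminergic and non-dopaminergic libraries deviated together after food training, with correlations of 0.116, 0.127, 0.262 and 0.242 (differently numbered pairs -0.184 to 0.146), and were treated as pairs for the replicate block. The labels do not state that they came from the same pool of mice. The labels give the group and the replicate number, and do not state that the samples of a group are separate pools. The p-values measure the spread between libraries, and the main test between populations does not use the pairing.

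The scripts were checked on simulated counts in which 200 genes differed by a log2 fold change of 3. Of these, 63.5% were found again among 18612 genes for the populations and 66.5% among 18039 genes for maintenance against food training, with 3.05% and 2.92% false calls. Only genes above a low level were changed, and smaller differences were not simulated. The shares found again do not apply to smaller differences.

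The members and lists were chosen with earlier results of these data known. Values per library are given for members past the threshold, for the member with the lowest p of each role in the populations and at maintenance, and for Syt1, Snap25, Vamp2 and Stx1a. In other lists, up to 3 genes past the threshold in each direction with the lowest p are named by their log2 fold change. Other members named with values were chosen after their values were seen.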

Additional observations from a re-analysis of the deposited data

Results flagged for a closer look

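In groups of 4 libraries, 7 of 138 combinations of a member and a group held a library far from the other 3 on the CPM scale, where chance gives about 1 in 20. The high ones after food training in dopaminergic nuclei were Stx1a in replicate 1 (89.5 CPM, others 33.8 to 37.6), Syt17 in replicate 3 (121, others 62.0 to 71.1), Syn1 in replicate 4 (85.6, others 47.6 to 52.8) and Doc2b in replicate 4 (0.761, others 0). With the other 3 at 0, any count in replicate 4 would have flagged Doc2b. Erc1 was low in dopaminergic replicate 1 of that group (46.1 CPM, others 110.2 to 117). Syt10 was high in non-dopaminergic replicate 4 (32.6 CPM, others 19.2 to 21.0), and Rims2 in abstinence replicate 4 (265 CPM, others 159 to 171). Without dopaminergic replicate 1, the log2 fold change of Stx1a at maintenance was -1.53 (adjusted p = 0.434).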

How the results depend on the processing

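The count of members called between populations (15) was 9 with the replicate block, 8 to 18 without 1 library each (8 without non-dopaminergic replicate 1 or 3, 18 without dopaminergic replicate 3), where the genes called over the whole table ranged from 1900 to 3740, and 11 to 21 under DESeq2 size factors, upper quartile scaling, no filter beyond 1 count, the DESeq2 test, the GC offset, the fit of all 15 libraries and 2 alternatives chosen after seeing the data, namely the block with a GC offset and both replicates 2 left out (11 members each, 10 shared). Over all genes the block gave 775 calls and the DESeq2 test 3883, against 2534. In the stage comparisons the replicate numbers did not pair the samples, and the block gave 0 members throughout. The DESeq2 test called 1 member at maintenance and 977 genes, against 25. Over all alternatives the genes called ranged from 0 to 977 at maintenance, from 1 to 793 for abstinence against maintenance (34), from 0 to 140 for abstinence against food training (0) and from 0 to 358 over any stage (16), and without 1 library each from 5 to 78, 6 to 73, 0 to 0 and 1 to 23. With a term for the 4 libraries of low GC slope, estimated from non-dopaminergic replicate 2 against its group alone, the members' median was 0.25 at maintenance and -0.26 for abstinence against maintenance. In that fit, of the members followed singly (9 at maintenance, 4 for abstinence against maintenance), those whose log2 fold change turned were, at maintenance, Snap25 (-0.085), Stx1a (0.027), Syt3 (0.55) and Vamp2 (0.40), and for abstinence against maintenance Snap25 (0.15), Stx1a (-0.53) and Syt3 (-0.47). Without 1 library each, Rab3b at maintenance ranged from -0.21 (without maintenance replicate 1) to 0.85, and Cadps2 after abstinence from -0.44 to 0.089 (without food-trained replicate 4). The cause was not tested. Shares without length correction were, in dopaminergic and non-dopaminergic nuclei, Sv2c 14.5% and 3.01%, Rab3a 49.3% and 45.2%, Vamp1 19.1% and 30.3%, Rims2 85.1% and 86.9%, Cplx1 71.0% and 52.8%, with Unc13c 54.5% in the former and Syn3 45.7%, Erc2 55.1% and Cadps2 7.65% in the latter; dividing by length changes them by construction. Depth limits Doc2b and Syt6, which rest on 0 to 35 and 0 to 150 counts in food-trained dopaminergic libraries.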
